A study of Drosophila melanogaster with 8 samples.

Results

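The Antennapedia complex and the bithorax complex are the 2 clusters of Hox genes on chromosome arm 3R of Drosophila melanogaster. They were taken as the intervals chr3R:2480001-2830000 and chr3R:12480001-12815000 of the dm3 build, 350 kb and 335 kb long. Cap analysis of gene expression (CAGE) tags, each marking the 5′ end of a capped RNA, were clustered by position into tag clusters (TCs), each an inferred transcription start site (TSS). A TC was built from positions that reached 2 tags in any 1 library, merged within 20 bp on a strand, trimmed of positions under 0.1 of the summit's tags and merged again. All TCs of the intervals were members, 363 in the Antennapedia complex and 313 in the bithorax complex, so 676 of the 688364 TCs of the genome and of the 156278 on 3R.

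Hox genes encode homeodomain transcription factors that give the body segments their identity, and their order on the chromosome follows the order of the segments they act in. The Antennapedia complex holds lab, pb, Dfd, Scr and Antp, which act in the head and the front thorax, together with bcd, zen and ftz, which have other roles in the early embryo. The bithorax complex holds Ubx, abd-A and Abd-B, which act in the rear thorax and the abdomen, and is a classical target of Polycomb repression. On a later build, the annotation places Taf1, CG1307, twr and agt before lab at the start of the first interval. In the second, it places CCT3, Mettl4, CG14907 and modSP before Ubx at the start, and Abd-B before VhaM9.7-d, Actn3 and AhcyL2 at the end. Positions were not converted between builds, so no TC is assigned to a gene here, and neither the gene content of the intervals nor markers of the cell type were checked on dm3.

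The 8 libraries came from S2 cells, a line derived from fly embryos, treated with double-stranded RNA. Of these, 4 are labelled control (dsRNA against GFP) and 4 are labelled exosome knockdown (dsRNA against Dis3 and Rrp6, the catalytic subunits of the RNA exosome, which degrades RNA from the 3′ end). The labels run opposite to the study's own expression table: all 4 libraries labelled control had the library sizes of its knockdown columns, and all 4 labelled exosome knockdown those of its GFP columns. Libraries are therefore called by their labels throughout, and each log2 fold change sets the level under the control label over the level under the exosome knockdown label. Where the study's columns hold, a positive value means more tags after exosome knockdown. Library totals were 33565925 to 46388382 tags, and levels are given as tags per 1000000 of these tags (TPM), as mean ± SD over 4 libraries.

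Both complexes were poor in TCs and in tags. There were 10.4 TCs per 10 kb in the Antennapedia complex and 9.34 in the bithorax complex, and 57.2 in the rest of 3R. The median TC held 2 tags over the 8 libraries in each complex, and 5 in the genome. A single position made up 296 (81.5%) of the TCs in the Antennapedia complex and 267 (85.3%) in the bithorax complex, compared with 55.9% genome-wide. Only tags from the libraries labelled control were found in 136 and 142 of the members of each complex, and only tags from those labelled exosome knockdown in 132 and 109. These were 37.5% and 45.4% of the members for the control label and 36.4% and 34.8% for the other, compared with 29.9% and 20.4% of all TCs. At this depth, most members carried too few tags to compare, and 304 and 261 had fewer than 10. The 59 and 52 TCs with at least 10 tags (16.3% and 16.6%, where 36.8% of all TCs reach this) were tested in a fit across all 253238 such TCs.

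Within each complex, the tags lay at one end of the interval. The Antennapedia complex held 116695 tags (0.152% of those on 3R), of which 109343 (93.7%) fell in its first 10 kb. The bithorax complex held 16619 (0.0217%), of which 12310 (74.1%) fell in its last 5 kb. Both strands together, the other 34 steps of 10 kb in the Antennapedia complex had a median of 59.5 tags over the 8 libraries, and the other 33 in the bithorax complex a median of 52, whereas the 2791 steps of 3R had a median of 268. On single strands, these steps held 8 to 4863 tags in the Antennapedia complex and 10 to 1328 in the bithorax complex. Long stretches had no tested TC, the longest running 112.4 kb from 2670229 in the Antennapedia complex and 86.6 kb from 12721303 in the bithorax complex.

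**Figure D1:**
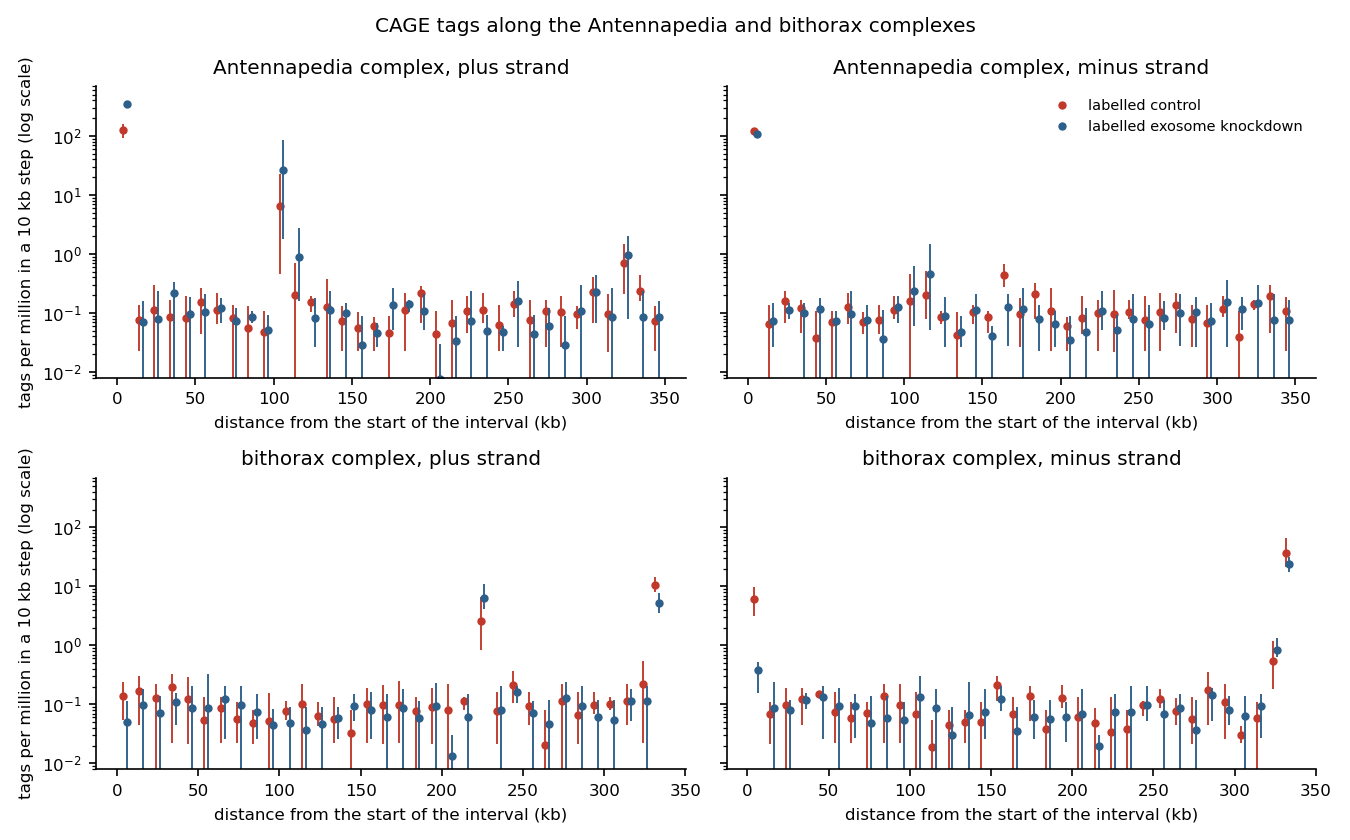
CAGE level (TPM) in each 10 kb step along both complexes, by strand, on a log axis. Points are means of 4 libraries and lines run from the lowest to the highest library (cut off at the lower edge where a library had no tags). The first step of the Antennapedia complex and the last step of the bithorax complex hold 93.7% and 74.1% of the tags.

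Of the 59 tested TCs of the Antennapedia complex, 2 were higher and 11 lower in the libraries labelled control, and 46 were not called (edgeR quasi-likelihood test, adjusted p under 0.05). Of the 52 of the bithorax complex, 20 were higher, 2 lower and 30 not called. Genome-wide, 18.6% of the tested TCs were called higher and 5.82% lower. The share called higher was thus 3.39% in the Antennapedia complex and 38.5% in the bithorax complex, and the shares called lower were 18.6% and 3.85%. Groups did not overlap at 3 higher and 5 lower TCs of the 59 in the Antennapedia complex, and at 20 and 0 of the 52 in the bithorax complex. Genome-wide, this held for 17.3% and 6.85% of the tested TCs. The median log2 fold change was −0.40 in the Antennapedia complex and 1.37 in the bithorax complex, with 0.16 over all tested TCs. In the Antennapedia complex it was −0.04 over the 32 tested TCs of the first step and −1.97 over the other 27. Of these 27, 13 lay in a single plus-strand stretch of 1401 bp, where the 2 replicate 4 libraries held 80.2% of the tags. All 5 lower calls outside the first step were in that stretch, and none had groups apart. In the bithorax complex it was 1.91 over the 39 of the last 5 kb and 0.32 over the other 13. Setting TCs without tags in a group to their bounds could not move the medians, since the bounds lie on the same side of them as the fitted values. DESeq2 called 5 TCs lower in the Antennapedia complex and 0 in the bithorax complex (3 at an unadjusted p under 0.05), and the lower calls of the Antennapedia complex numbered 5 to 15 when a library was left out.

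**Figure D2:**
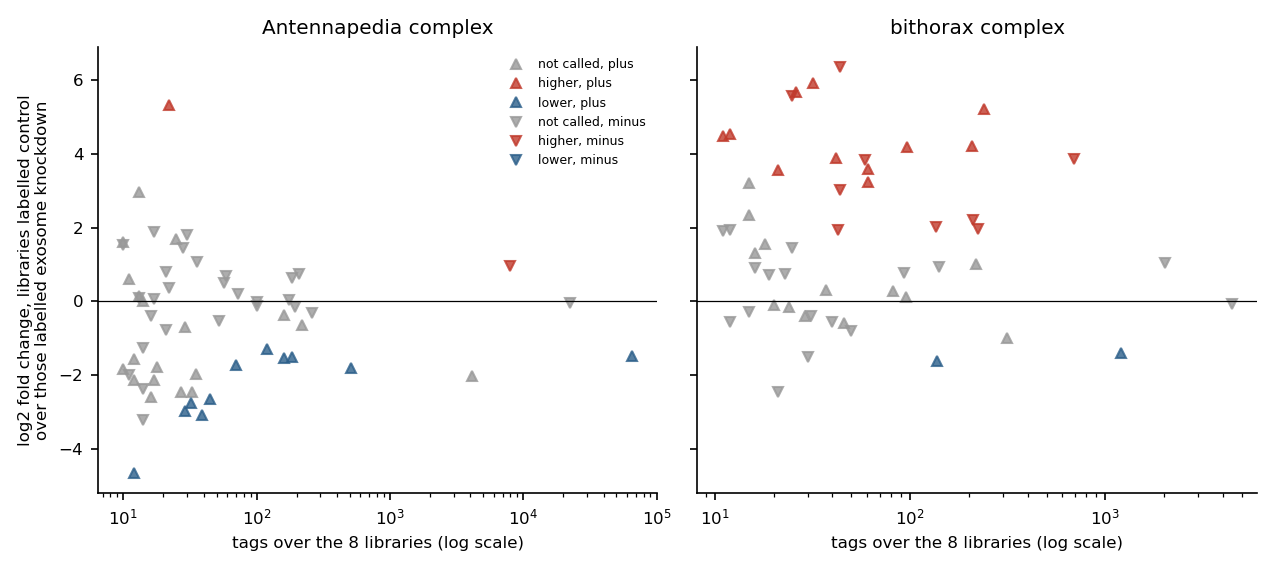
Log2 fold change of the 111 tested TCs against their tags over the 8 libraries (log axis), with upward triangles for the plus strand and downward ones for the minus strand. Red marks TCs called higher and blue TCs called lower in the libraries labelled control. The bithorax complex has 20 red and 2 blue points, the Antennapedia complex 2 red and 11 blue. Points above 5 on the vertical axis include TCs with no tags in the libraries labelled exosome knockdown, whose fitted values depend on the prior count.

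The strongest TC of either complex was on the plus strand at chr3R:2483606-2483654, in the first step of the Antennapedia complex, and held 56.1% of that complex's tags. It had 114.5, 109, 82.2 and 143 TPM in libraries labelled control and 300, 302, 305 and 329 TPM in those labelled exosome knockdown. The groups did not overlap, with 112 ± 25.1 against 309 ± 13.5 TPM (log2 fold change −1.48, SE 0.23, edgeR adjusted p = 5.4e-06). On the minus strand, 481 bp upstream in the divergent direction, the TC at chr3R:2483125-2483159 had 74.0, 73.6, 69.1 and 57.0 TPM in libraries labelled control and 69.6, 57.6, 87.8 and 68.3 TPM in the others. Here the groups overlapped, and no change passed the test (log2 fold change −0.06, SE 0.23, edgeR adjusted p = 0.899). The plus-strand TC was therefore called lower and its minus-strand neighbour was not called, and the difference between their fold changes was not tested.

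Several weaker plus-strand TCs downstream of that summit were also lower. The TC at chr3R:2484063-2484111 had 0.745 ± 0.366 TPM in libraries labelled control and 2.55 ± 0.913 TPM in the others (log2 fold change −1.80, SE 0.37). Its lowest library labelled exosome knockdown, at 1.41 TPM, was above the highest labelled control, at 1.23 TPM. Farther along, TCs with summits at 2484785 and 2484838 had log2 fold changes of −1.52 and −1.51 (edgeR adjusted p = 0.0070 and 0.0057), again without overlap. Together the 6 tested TCs from 2484759 to 2485021 held 0.795 ± 0.199 TPM in libraries labelled control and 2.10 ± 0.514 TPM in the others, and 3 of them were called lower.

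The minus strand of the same step held the one strong TC of the Antennapedia complex that was higher, at chr3R:2485760-2485802. It had 33.9, 34.04, 27.7 and 36.1 TPM in libraries labelled control and 18.7, 17.8, 13.1 and 16.0 TPM in those labelled exosome knockdown. All libraries labelled control were above all the others (log2 fold change 0.97, SE 0.26, edgeR adjusted p = 0.0052). Taking the libraries labelled control as the knockdown, as the study's table does, its exosome sensitivity was 0.502, on the scale where 0 is a TC fully seen without knockdown and 1 a TC seen only with it. With the labels as deposited, it was 0. A minus-strand TC of a single position at 2482512 was not called (log2 fold change −0.31, SE 0.37).

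The other TC called higher in the Antennapedia complex was a single position on the plus strand at 2810326, far from the first step, and is named after its values were seen. It had 22 tags in the libraries labelled control and 0 in the others. Against a floor of 3 tags over the group, its level was at least 6.75-fold higher.

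Outside the first step, the tags of the Antennapedia complex gathered on the plus strand at chr3R:2589073-2590473, where 13 tested TCs lay. The strongest, a single position at 2589129, had 1.46, 0.893, 0.323 and 18.8 TPM in libraries labelled control and 12.9, 2.47, 1.56 and 72.1 TPM in those labelled exosome knockdown. Replicate 4 was by far the highest in each group, and the groups overlapped. The log2 fold change was −2.03 (SE 0.79) and did not pass the edgeR test (adjusted p = 0.0573), but it did with the replicate number as a block (−2.23, adjusted p = 5.0e-15), and DESeq2 gave an adjusted p of 0.381. The value moved from −4.53 (adjusted p = 3.1e-06) without control replicate 4 to −0.28 (adjusted p = 0.836) without exosome knockdown replicate 4. Of the 13 TCs, 5 were called lower and none had groups apart. All 13 were highest in exosome knockdown replicate 4, which held 63.9% of their tags, and the 2 replicate 4 libraries together held 80.2%.

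In the bithorax complex, the strongest TC was on the minus strand at chr3R:12813449-12813460. It had 16.5, 10.7, 7.20 and 20.8 TPM in libraries labelled control and 15.6, 13.5, 11.4 and 16.8 TPM in the others. The ranges lay within one another and no change passed the test (log2 fold change −0.09, SE 0.29, edgeR adjusted p = 0.879). A divergent TC on the plus strand, with its summit 153 bp away at 12813602, had 0.668 ± 0.227 against 1.34 ± 0.953 TPM and was not called either (log2 fold change −1.01, SE 0.42, edgeR adjusted p = 0.0772). Leaving out control replicate 4 (−1.23, adjusted p = 0.0374) or exosome knockdown replicate 3 (−1.29, adjusted p = 0.0223) brought it past the test, and without exosome knockdown replicate 4 the value was −0.59.

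Most of the TCs called higher in the bithorax complex lay between those summits and the rest of the complex, within the same 5 kb. On the plus strand, 13 tested TCs at chr3R:12811308-12812666 had 5.15, 3.97, 6.06 and 4.94 TPM in libraries labelled control and 0.478, 0.596, 0.416 and 0.301 TPM in the others. The groups were far apart, with a ratio of the means of 11.2, all 13 fold changes were positive, and 10 of the TCs were called higher. Its strongest TC, at chr3R:12811734-12811803, held 57, 44, 98 and 36 tags in the libraries labelled control and 1, 3, 1 and 0 tags in the others (log2 fold change 5.21, SE 0.58, edgeR adjusted p = 1.9e-08). Next to it, the TC at chr3R:12811584-12811655 had 1.20 ± 0.323 against 0.0628 ± 0.0602 TPM (log2 fold change 4.21, SE 0.55). Their exosome sensitivities were 0.975 and 0.948 by the study's columns, and 0 by the deposited labels. Another named TC of this stretch, at chr3R:12811351-12811390, had 32 tags in the libraries labelled control and 0 in the others, and was at least 9.82-fold higher against the floor of 3 tags.

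On the opposite strand, these TCs faced the second strongest TC of the bithorax complex, at chr3R:12811978-12811998, whose summit lay 211 bp from that at 12811787 in a convergent arrangement. It had 6.12, 3.78, 3.04 and 22.3 TPM in libraries labelled control and 4.83, 2.80, 2.08 and 6.91 TPM in the others. Control replicate 4 stood apart, the groups overlapped, and the log2 fold change of 1.04 (SE 0.42) did not pass the edgeR test (adjusted p = 0.0736), but did with the replicate block (0.73, adjusted p = 0.0319). Without control replicate 4, the value was 0.064. Around it, 11 tested minus-strand TCs at chr3R:12811158-12812560 all had positive fold changes, and 5 were called higher.

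**Figure D3:**
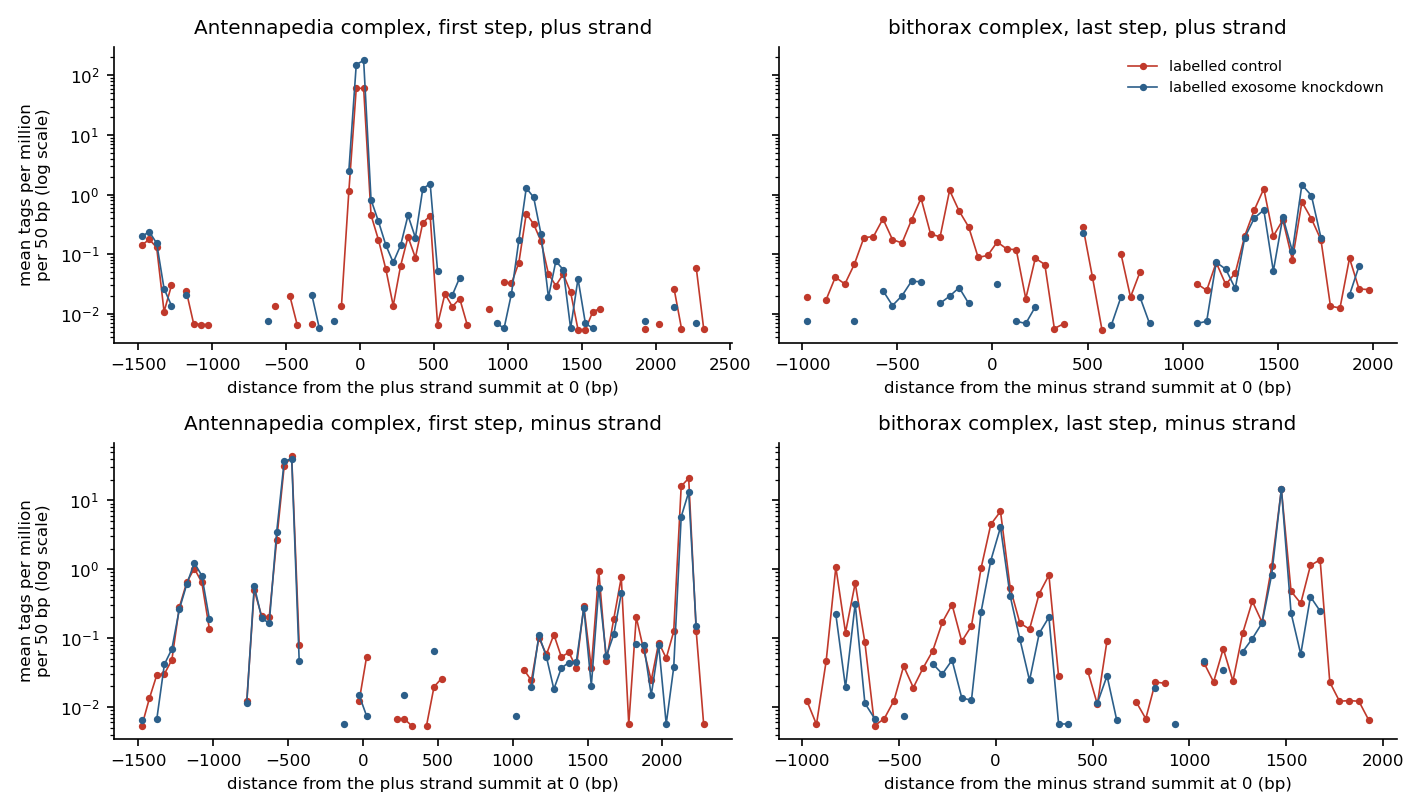
Mean TPM in 50 bp bins (log axis, bins with no tags left blank) around the plus-strand summit 2483640 of the Antennapedia complex and the minus-strand summit 12811998 of the bithorax complex, set at 0, by strand and group. The plus-strand peak of the Antennapedia complex is higher in the libraries labelled exosome knockdown (309 against 112 TPM), whereas the plus-strand tags around 0 in the bithorax complex are higher in those labelled control (5.03 against 0.448 TPM over 13 TCs).

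At the opposite end of the bithorax complex, in its first step, 4 minus-strand TCs at chr3R:12480978-12481625 were all called higher. Together they had 4.59, 3.86, 7.35 and 2.26 TPM in libraries labelled control and 0.387, 0.328, 0.104 and 0.246 TPM in the others, a ratio of the means of 16.96. The strongest, a single position at 12481381, held 165, 124, 287 and 74 tags in the libraries labelled control and 15, 10, 4 and 9 tags in the others (log2 fold change 3.86, SE 0.43, edgeR adjusted p = 2.1e-08), with an exosome sensitivity of 0.935 by the study's columns and 0 by the deposited labels. No library of one group reached the range of the other. The TC with its summit at 12481001 had 44 tags against 0, and was at least 13.5-fold higher against the floor of 3 tags.

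The plus-strand TC at chr3R:12703677-12703678 was one of 2 TCs called lower in the bithorax complex. It had 0.765, 0.841, 1.64 and 6.14 TPM in libraries labelled control and 4.08, 10.1, 3.90 and 4.67 TPM in the others. The groups overlapped through control replicate 4, and the log2 fold change was −1.41 (SE 0.46, edgeR adjusted p = 0.0215). The call was lost with DESeq2 (−1.37, adjusted p = 0.0607), with a filter of 50 tags (adjusted p = 0.0682), without control replicate 1, 2 or 3 (adjusted p = 0.110, 0.105 and 0.0804) and without exosome knockdown replicate 2 (−0.87, adjusted p = 0.214). It held with the replicate block (−1.71, adjusted p = 7.9e-07) and without control replicate 4 (−2.45, adjusted p = 6.9e-06).

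**Figure D4:**
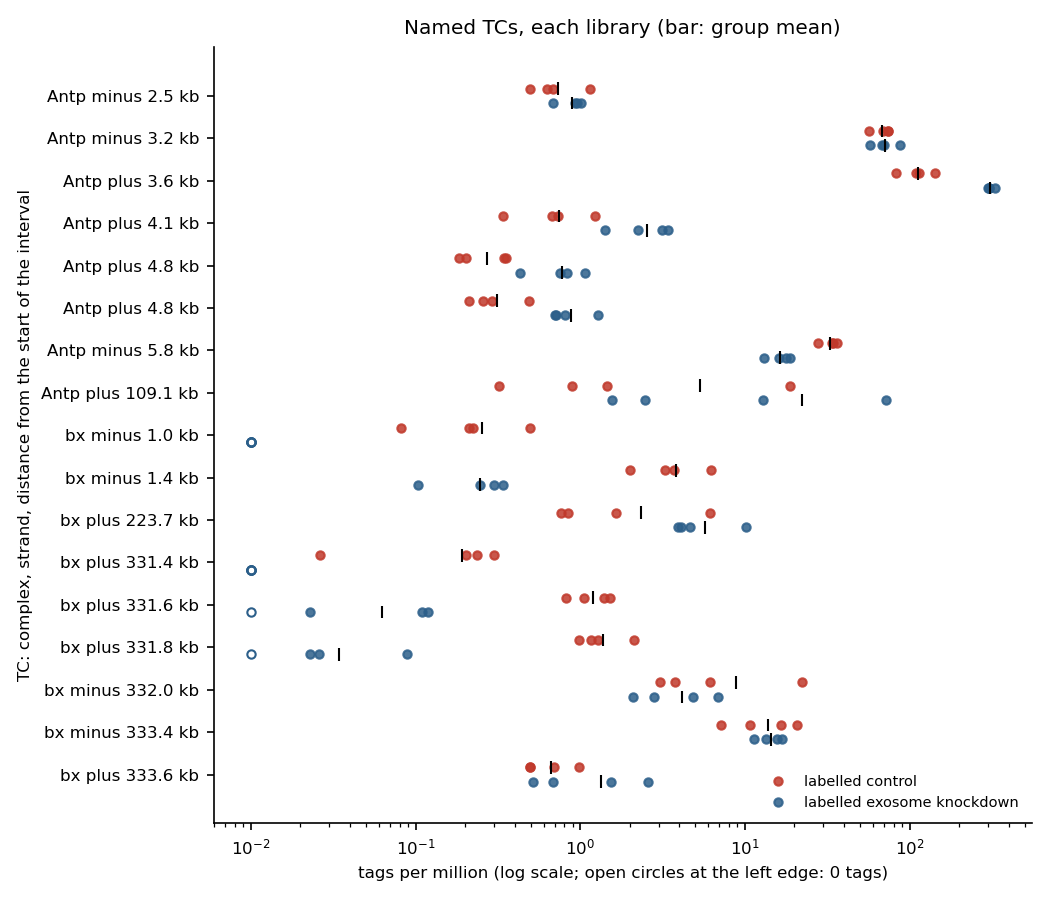
TPM of the 17 named TCs in each library (log axis; open circles at the left edge mark libraries with 0 tags), with a bar at each group mean. Rows give the complex (Antp, Antennapedia; bx, bithorax), the strand and the distance from the start of the interval. The 2 groups of points stand apart at the plus-strand summit of the Antennapedia complex (82.2 to 143 against 300 to 329 TPM) and overlap at its minus-strand neighbour.

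By steps of 10 kb per strand, 3 of the 68 tested in the bithorax complex and 1 of the 69 in the Antennapedia complex were called. Of the 26054 steps tested genome-wide, 15.8% were called higher and 9.94% lower. Outside the step with most tags, the median strand step held 25 tags in the bithorax complex and 28 in the Antennapedia complex. The genome-wide shares are not matched for tags. Fold changes of steps use scaling factors (TMM) computed on the steps, so they differ from the ratios of the TPM means. The plus strand of the first step of the Antennapedia complex was lower, with 127 ± 27.5 against 342 ± 18.8 TPM (log2 fold change −1.67, SE 0.19, edgeR adjusted p = 1.4e-05). Its minus strand was not called (−0.03, SE 0.18), and 0 steps of this complex were higher (1 at an unadjusted p under 0.05, and 1 called by DESeq2). In the bithorax complex, the minus strand of the first step was higher (3.83, SE 0.42), as was the plus strand of the last (10.7 ± 2.56 against 5.15 ± 1.93 TPM, 0.83, SE 0.28, edgeR adjusted p = 0.0401). The plus strand of the step with the TC at 12703678 was lower (−1.52, SE 0.52, edgeR adjusted p = 0.0441), with overlapping groups.

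Summed over the whole interval, the Antennapedia complex had 263, 256, 221 and 313 TPM in libraries labelled control and 460, 438, 464 and 568 TPM in the others. The groups did not overlap, with a log2 ratio of −0.88 (exact permutation test, two-sided, p = 0.0286, the smallest that 4 against 4 allows). Each log2 ratio of totals is the difference between the group means of per-library log2 TPM. It is not the log2 of the ratio of mean TPM. The strands went opposite ways, both without overlap and at the same exact permutation p of 0.0286. The plus strand had 137 ± 38.5 against 372 ± 57.9 TPM (log2 ratio −1.47), and the minus strand 126 ± 4.01 against 110 ± 10.4 TPM (0.20). Most of each difference lay in a single TC. These were the plus-strand TC at 2483640 (112 against 309 TPM) and the minus-strand TC at 2485802 (32.9 against 16.4 TPM). Strand totals without these TCs were not tested. The fit of 10 kb steps, whose TMM factors come from the steps alone, gave −0.03 for the step that holds most of the minus-strand tags. With TMM factors from the TCs, the ratio of the whole complex was −0.90. Without its strongest TC the ratio of the whole complex was −0.17 (exact p = 0.514), with overlapping groups. The bithorax complex had 58.4, 44.7, 48.2 and 101 TPM against 43.8, 45.3, 27.8 and 50.5 TPM, with overlapping groups and a log2 ratio of 0.55 (exact permutation p = 0.171). Without its strongest TC, which was not called, the ratio was 0.81 (exact permutation p = 0.0286). The libraries then had 41.9, 34.02, 41.04 and 80.4 TPM under the control label and 28.1, 31.8, 16.4 and 33.69 TPM under the other. The groups were thus barely apart, with control replicate 2 at 34.02 TPM and exosome knockdown replicate 4 at 33.69 TPM. Control replicate 4 was by far the highest library. The 2 log2 ratios differed by −1.43 (exact permutation p = 0.0286), and by −0.98 without the strongest TC of each (exact permutation p = 0.0571).

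Divergent initiation was counted as a description, with no test. Of 31 tested plus-strand TCs of the Antennapedia complex, 7 (22.6%) had a minus-strand summit upstream within 250 bp and 17 (54.8%) within 500 bp. In the bithorax complex these were 20 (76.9%) and 23 (88.5%) of 26, and genome-wide 57.0% and 69.3%. Many of the members share a neighbour, so they are not independent.

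The 500 bp upstream and antisense of each of the 9 TCs with at least 500 tags, where upstream antisense RNAs (PROMPTs) would start, were counted in the same way. Of the 6 windows with enough tags to test, 2 were higher and 1 lower in the libraries labelled control, where 32.9% and 21.5% of 14338 windows were called genome-wide. Upstream of the TC at 12811998, the window lies within the plus-strand stretch at chr3R:12811308-12812666 described above and shares tags with it. This window had 38, 30, 45 and 33 tags in the libraries labelled control and 16, 12, 12 and 4 in the others. These groups did not overlap, with 0.877 ± 0.0763 against 0.286 ± 0.1199 TPM (log2 fold change 1.43, SE 0.38, edgeR adjusted p = 0.0065). The window upstream of 2485802 held 14 tags in all, and its call (log2 fold change 2.91, SE 1.07, edgeR adjusted p = 0.0356) was lost with the replicate block (adjusted p = 0.0787) and with DESeq2 (adjusted p = 0.0842). The window called lower, upstream of 2483159, contains the strongest plus-strand TC. Upstream of 12813449, the window contains the plus-strand TC at 12813602. This window had 90, 50, 58 and 138 tags in libraries labelled control and 148, 62, 91 and 202 in the others, lower under the control label in all 4 same-numbered pairs. It was not called (log2 fold change −0.82, SE 0.40, edgeR adjusted p = 0.0989), but was lower with the replicate block (−0.84, adjusted p = 0.0058), with a window of 250 bp (−0.98, adjusted p = 0.0429) and without control replicate 4 (−1.30, adjusted p = 0.0097). Without exosome knockdown replicate 4 the value was −0.48.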

How the data were processed

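Per the paper's methods, the authors trimmed the CAGE reads, kept those with a quality of at least 30 in 50% of bases and mapped them uniquely to dm3 with Bowtie 1.1.1, allowing 2 mismatches. The deposited files hold raw, unnormalized counts: the number of tags whose 5′ end lay at each base of either strand. No removal of duplicate reads is named, so limits cover counting error only. The paper calls the replicates biological, and neither it nor the labels say whether each library came from its own culture, so p-values measure the spread between these libraries.

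Each library's identity was read from the study's expression table, where its total turned values under 100 tags into whole tags in 1 column only (100%, tolerance 0.01 tag, and at most 14.5% in any other). Libraries were sequenced in pools of 4, whose members are not named. The barcodes allow pools that follow the groups, so pool and group cannot be told apart.

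TCs with at least 10 tags, 10 kb steps and 500 bp upstream windows were tested genome-wide with edgeR 4.0.16 (quasi-likelihood, TMM, library totals, R 4.3.3, limma 3.58.1) and Benjamini-Hochberg adjustment at 0.05. DESeq2 1.42.0 was an alternative. Totals were compared by exact permutation tests. Same-numbered libraries deviated together (r = 0.10, 0.18, 0.27 and 0.46 over 17438 TCs), so the numbers were taken to pair the libraries in an alternative fit, the replicate block. Differently numbered pairs ranged from −0.45 to 0.19, and 3 of these 12 exceeded 0.1. The main fits and the permutation tests compared the groups without this pairing. No libraries were copies (chi-square per degree of freedom at least 40.2). On simulated counts with a dispersion fixed at 0.05 and no replicate effect, 186 of 200 TCs changed 4-fold were found among 253238, with 4 false calls. The changed TCs were drawn only from those with more tags. These rates therefore need not hold for TCs with few tags or for the spread of the real libraries. Clustering and permutation tests ran in Python 3.11.15 (pandas 2.3.3, numpy 2.4.6), and figures were drawn with matplotlib 3.10.9.

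Named TCs were the 6 with most tags in each complex and, among those with at least 30 tags, called and with groups apart, the 4 with the largest positive and the 4 with the largest negative fold change. The members and lists were chosen with earlier results of these data known, and the stretches of neighbouring TCs after their values were seen, so their sums have no test. Sequences were not used here.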

Additional observations from a re-analysis of the deposited data

Results flagged for a closer look

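Of 66 groups of 4 libraries examined, 11 had a library set apart from the other 3 by Dixon's criterion, where chance gives about 1 in 20 for normal values. A TC, its step and its complex share tags, so these groups are not independent. In exosome knockdown replicate 4, the plus-strand TC at 2483640 had 329.1 TPM (300.3 to 305.0 TPM in the others), the TC at 2589129 had 72.1 TPM (1.56 to 12.9) and the step from 2580001 had 84.3 TPM (1.77 to 14.8). The plus strand of the whole Antennapedia complex had 459 TPM in the same library (341 to 348). In control replicate 4, the TC at 2589129 had 18.8 TPM (0.323 to 1.46), its step 22.3 TPM (0.453 to 1.64) and the Antennapedia complex outside its first step 36.1 TPM (5.98 to 7.93). In the bithorax complex, control replicate 4 had 6.14 TPM at 12703678 (0.765 to 1.64) and 22.3 TPM at 12811998 (3.04 to 6.12). Exosome knockdown replicate 2 had 10.1 TPM at 12703678 (3.90 to 4.67) and 11.1 TPM in the step from 12700001 (4.21 to 5.22). What sets these libraries apart was not tested.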

How the results depend on the processing

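Of the 17 named TCs, 9 kept their direction and call under all 13 settings, and 2 more (12481001 and 12811358) under the 12 that could be run on them, since both have fewer than 50 tags. With a filter of 50 tags, 1 TC was higher and 6 lower in the Antennapedia complex, and 10 higher and 0 lower in the bithorax complex (3 at an unadjusted p under 0.05), where fewer TCs are tested. DESeq2 called 5 and 0 TCs lower in the 2 complexes, 1 step higher in the Antennapedia complex (with no adjusted p for 44 of its steps) and 1 upstream window higher. With the replicate block, 3 steps were lower in the Antennapedia complex, 2 in the bithorax complex and 1 upstream window was higher. Besides the TCs at 2589129 and 12811998 and the windows upstream of 2485802 and 12813449, the block changed no other call of a named TC or its window. Without the strongest TC the log2 ratios of the totals were −0.17 and 0.81, and their difference −0.98. Leaving out a library gave 1 to 3 TCs higher and 5 to 15 lower in the Antennapedia complex (5 without control replicate 1, control replicate 2 or exosome knockdown replicate 4, and 6 without control replicate 3), 17 to 19 higher and 0 to 3 lower in the bithorax complex. Steps numbered 0 to 1 higher and 1 to 3 lower in the Antennapedia complex, 1 to 2 higher (1 without control replicate 1, 3 or 4 or exosome knockdown replicate 1, 2 or 3) and 0 to 2 lower in the bithorax complex (0 without control replicate 1, 2 or 3 or exosome knockdown replicate 1, 2 or 3), and 1 to 2 windows were higher. The ratios ran from −0.96 to −0.80, from 0.30 to 0.69 and, for the difference, from −1.56 to −1.26. With 3 libraries against 4 no permutation p can be under 0.0571. The numbers of TCs were 318 to 350 and 274 to 302. The uncalled TC at 2483159 ran from −0.16 to 0.033 and changed sign without control replicate 4 (0.033) and without exosome knockdown replicate 3 (0.018). That at 12813449 ran from −0.32 to 0.14 and changed sign without control replicate 3. Without the step with most tags, an alternative chosen after seeing the data, the ratios were −0.83 and 0.36 and their difference −1.18. The cause of these changes was not tested.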
